A study of Homo sapiens with 14 samples.

Results

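Small nucleolar RNA (snoRNA) host genes were examined in SCC23 cells, an established head and neck squamous cell carcinoma (HNSCC) line, with and without the histone methyltransferase KMT2D and with and without glucose. Members were the rows of the count files named SNHG with a number, together with GAS5, ZFAS1 and EPB41L4A-AS1, which gave 31 of 59471 gene names. SNHG18 had no count in any library. A total of 27 members passed the filter on low counts in all 4 comparisons below, and SNHG18, SNHG22, SNHG27 and SNHG28 did not. The name decided membership and no measured value entered that rule, but the members were chosen with earlier results of these data known.

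A snoRNA host gene is transcribed and spliced like a messenger RNA, and its introns hold snoRNAs that are trimmed free after splicing. Box C/D snoRNAs guide the ribose methylation of ribosomal RNA, box H/ACA snoRNAs guide its pseudouridylation, and the related scaRNAs guide the modification of spliceosomal RNAs in Cajal bodies. The spliced host RNA itself usually encodes no protein. Several host RNAs start with a terminal oligopyrimidine (TOP) tract, the start that ribosomal protein mRNAs carry, and are degraded by nonsense-mediated decay (NMD) while they are being translated, so that their level depends on growth conditions as well as on transcription.

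The RNA-seq data hold 14 libraries of polyA RNA from 2 experiments. KMT2D-WT cells had received Cas9-GFP with an sgRNA against LacZ, while KO1 and KO2, the KMT2D-KO lines, had received the same plasmid with an sgRNA against KMT2D. GFP-positive cells were sorted and grown on, and no cloning from single cells is described for them. Cells were kept in high-glucose medium (+Glc) or deprived of glucose for 6 h (-Glc), and each condition had 3 KMT2D-WT libraries (1 of experiment 1, called WT, and 2 of experiment 2, called WT1 and WT2) and 4 KMT2D-KO libraries (KO1 and KO2 in each experiment). The labels do not say whether libraries of 1 group came from separate cultures, so p-values measure the spread between these libraries, which may be partly technical.

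Each library held between 15669154 and 62968057 counts, and the members took between 0.110% and 0.283% of them. In experiment 2, the 4 +Glc libraries count the 2 mates of a read pair separately, which repeats many fragments. The -Glc libraries of experiment 2 lay close to their partners of the same genotype (chi-square of 1.71 per gene for WT1 and WT2 and 1.78 for KO1 and KO2, against 25.9 to 83.0 for the other pairs). Over 7 genes that separated lines KO1 and KO2 by at least 4 log2 units in both +Glc experiments, the -Glc library labelled KO1 of experiment 2 lay 4.85 log2 units from KO1 and 0.145 from KO2 of experiment 1, so its label is in doubt. KMT2D itself had 279, 266 and 271 CPM (counts scaled to a common library size after TMM normalization) in +Glc KMT2D-WT cells, 182 and 184 CPM in KO1 and 323 and 373 CPM in KO2. After glucose deprivation it had 239, 233 and 231 CPM in KMT2D-WT cells, 19.9 and 190.2 CPM in KO1 and KO2 of experiment 1 and 152 and 145 CPM in the KO libraries of experiment 2. Some other RNAs were also lower in -Glc KO1 of experiment 1, though by less than KMT2D. Against KO2 of experiment 1, that library had 121 and 309 CPM of NORAD, 273 and 827 of NEAT1, and 95.0 and 225 of MALAT1. CCT6A went the other way (690 and 430 CPM). Whether these differences and that of KMT2D share a cause was not tested. Neither difference of KMT2D was called (log2 fold change -0.020, adjusted p = 0.967, and -0.90, adjusted p = 0.247), and because a small Cas9 edit leaves most of an RNA in place, the KMT2D count does not test the edit. Of 9 squamous epithelial markers, 7 had at least 1 CPM in all 14 libraries (summed 550 to 2790 CPM), while leukocyte markers summed to at most 1.10 CPM and endothelial markers to at most 4.11 CPM. Fibroblast markers, chiefly COL1A1, summed to 5.49 to 6.96 CPM in +Glc KMT2D-WT and 12.5 to 21.4 CPM in +Glc KMT2D-KO libraries, and to 3.17 to 5.58 and 7.37 to 14.04 CPM without glucose. Their part in the results below was not tested.

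The starts of the host RNAs are shown first, because the TOP tract is the sequence feature that this gene family is best known for. The RefSeq table (GRCh38.p14) held a start for 27 of the 31 members. Each line gives 10 bases before the annotated first base and 20 from it on, written 5′ to 3′ on the strand of the gene, and the capitals mark the first base or the unbroken run of C and T that begins with it. The first 6 are the members with tested counts whose annotated start is a C within a run of at least 5 C or T.
ZFAS1, chr20:49278632-49278661 (plus strand): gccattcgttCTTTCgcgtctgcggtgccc
SNHG32, chr6:31834906-31834935 (plus strand): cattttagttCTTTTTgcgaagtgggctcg
SNHG12, chr1:28581854-28581883 (minus strand): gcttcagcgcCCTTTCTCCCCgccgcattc
SNHG4, chr5:139274091-139274120 (plus strand): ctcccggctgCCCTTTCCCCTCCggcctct
SNHG19, chr16:2155339-2155368 (minus strand): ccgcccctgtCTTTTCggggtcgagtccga
SNHG5, chr6:85678714-85678743 (minus strand): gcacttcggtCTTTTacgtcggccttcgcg
The next 5 belong to members with some of the largest differences between genotypes, whose annotated starts hold no such run.
GAS5, chr1:173869026-173869055 (minus strand): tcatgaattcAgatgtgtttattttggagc
SNHG29, chr17:16438977-16439006 (plus strand): ccttttgtgaGgattgggatattccgactc
EPB41L4A-AS1, chr5:112160516-112160545 (plus strand): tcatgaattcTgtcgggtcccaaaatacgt
SNHG3, chr1:28505933-28505962 (plus strand): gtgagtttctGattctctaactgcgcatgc
SNHG20, chr17:77088633-77088662 (plus strand): ttccggccggAagttgctgacggagctact

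A start with such a run was found in 7 of the 27 members (25.9%), the seventh being SNHG18, and in 1417 of 34943 promoters of the table (4.06%). The promoters of the table were not limited by chromosome, so the 2 shares differ in that chromosome 8 was left out for members alone. Only the gene's own strand at the annotated first base was searched, and annotations differ in where they put that base. The starts shown for GAS5 and SNHG3 lie outside their gene models used for counting, whose outermost 5′ bases are 173868882 and 28505980. The start shown for SNHG4 lies just outside its model, which begins at 139274102. The start used for SNHG14, within 24823598 to 24823627 and not shown, lies far before its model, which begins at 24978583. Those starts are therefore not the starts of the models counted here, whose own starts were not searched for a run. The counts below rest on the RefSeq starts. Among members called higher in -Glc KMT2D-KO cells, as described later, 3 of 11 whose start was used had the run. SNHG6, also called higher there, was not among these 11. It was present in 1 of 3 members called lower and in 2 of 9 not called. ZFAS1 and SNHG4, whose starts both hold the run, changed in opposite directions in these cells.

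The members differed in what they carry and in how much RNA they made. By the annotation used for counting, 12 members hold box C/D snoRNAs alone, 11 hold box H/ACA snoRNAs alone, SNHG12 and SNHG25 hold both kinds, and 4 (SNHG10, SNHG20, SNHG21 and SNHG22) hold a scaRNA. GAS5, a known host of box C/D snoRNAs, and SNHG28 are in none of these counts. SNHG14, the imprinted transcript over the SNORD115 and SNORD116 clusters, holds 84 snoRNA names and has 122609 bases of exons, while SNHG25 has 278. Per kb of exons, the highest levels over the 14 libraries were those of SNHG29 (80.2 CPM per kb), GAS5 (47.2), SNHG6 (40.7), SNHG1 (35.2) and SNHG32 (27.9). At the low end stood SNHG14 (0.594 CPM per kb), SNHG31 (0.847), SNHG21 (0.863) and SNHG20 (1.04). Neighbours in this order mostly did not differ beyond their spread, as the plot of CPM per kb shows. SNHG22 had at most 8 counts in a library, SNHG28 at most 2 and SNHG27 at most 1.

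**Figure D1:**
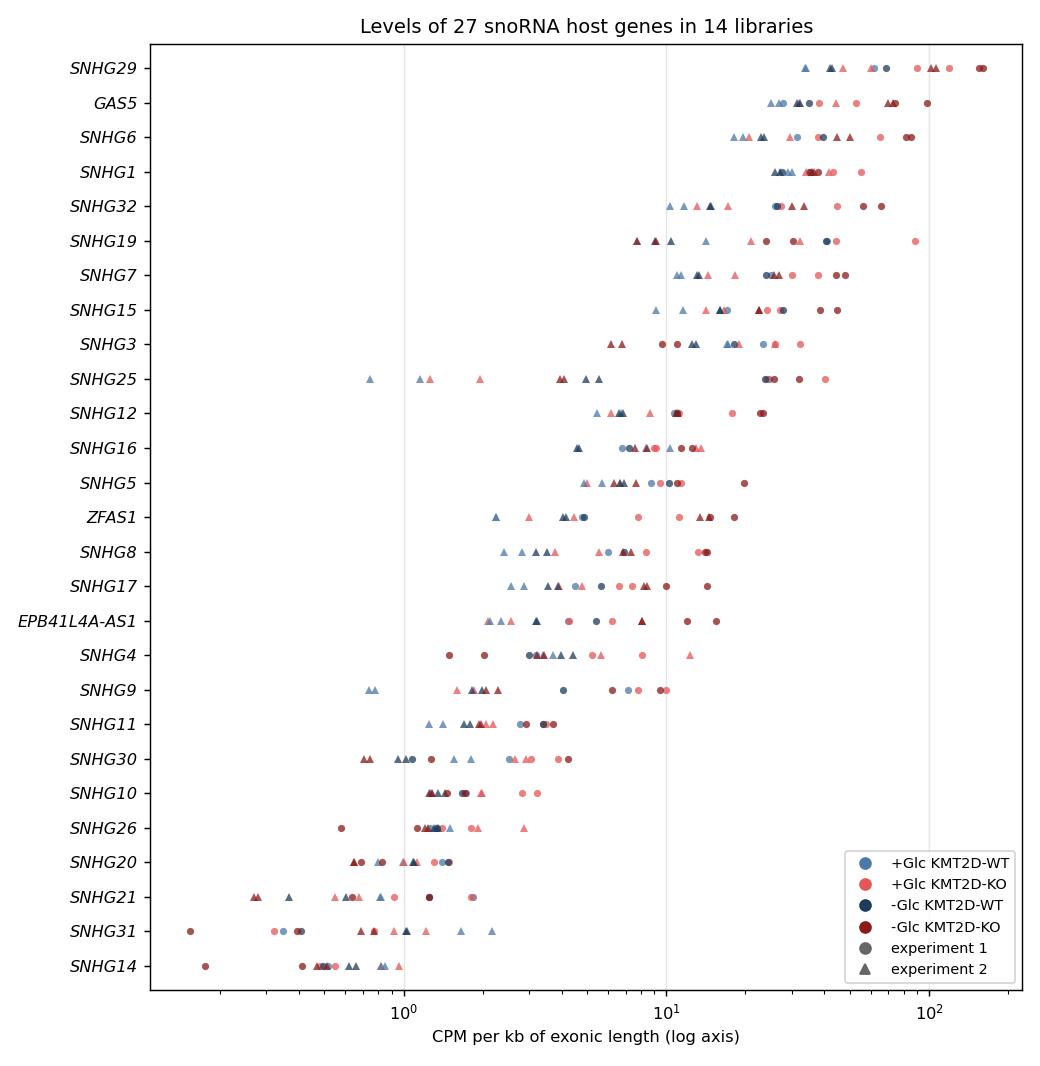
Levels of the 27 tested members, in CPM per kb of exonic length on a log axis, with 1 point for each of the 14 libraries (colour, genotype and glucose; circles, experiment 1; triangles, experiment 2). SNHG29 has the highest mean (80.2) and SNHG14 the lowest (0.594), and for most members the triangles lie to the left of the circles.

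Levels also depended on the experiment. The members' median log2 difference of experiment 2 from experiment 1 was -0.73 in +Glc KMT2D-WT and -0.72 in +Glc KMT2D-KO cells, and -0.63 and -0.72 without glucose. Over all genes tested these medians lay between -0.040 and 0.050. Since KMT2D-WT cells have 1 library in experiment 1 and 2 in experiment 2, KMT2D-KO and KMT2D-WT cells were compared with experiment as a covariate. The quasi-likelihood test of edgeR was used with p-values adjusted over all genes by the method of Benjamini and Hochberg, and "called" below means an adjusted p under 0.05. Values of a member are given as CPM after TMM normalization in the order WT of experiment 1, WT1 and WT2 of experiment 2, and then KO1 and KO2 of experiment 1 and KO1 and KO2 of experiment 2.

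With glucose, most host genes were higher in KMT2D-KO than in KMT2D-WT cells. Of 27 members tested, 15 were called higher and 0 lower, and 19 had an unadjusted p under 0.05. Over all 20423 genes tested, 24.7% were called, 13% higher and 11.7% lower. The members' median log2 fold change was 0.54, against 0.022 over all genes, and 25 of 27 were positive. The differences called ranged from 0.41 for SNHG1 to 1.24 for SNHG4 on the log2 scale. Among hosts of box C/D snoRNAs alone, 7 of 11 tested were called higher, and among hosts of box H/ACA snoRNAs alone, 6 of 10. In bulk RNA, a change in the share of cells that make an RNA and a change in its amount per cell cannot be told apart.

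GAS5, whose spliced RNA is known to accumulate in growth-arrested cells, had 134, 130.1 and 122 CPM in KMT2D-WT and 185, 254, 155 and 214 CPM in KMT2D-KO cells. All 4 KO libraries lay above all 3 WT libraries, and KO2 lay above KO1 in both experiments (log2 fold change 0.62 ± 0.15 (SE), adjusted p = 0.0146). ZFAS1, transcribed away from the start of ZNFX1 on the opposite strand, had 39.6, 18.7 and 18.7 CPM in KMT2D-WT and 65.0, 92.7, 24.9 and 37.1 CPM in KMT2D-KO cells. In each experiment both KO libraries exceeded the WT libraries, but the WT library of experiment 1 exceeded both KO libraries of experiment 2, so the groups overlapped (log2 fold change 0.84 ± 0.17 (SE), adjusted p = 0.00807). SNHG29, the host of SNORD49A, SNORD49B and SNORD65, had 444, 244 and 242 CPM in KMT2D-WT and 643, 857, 337 and 431 CPM in KMT2D-KO cells. It showed the same order as ZFAS1 (log2 fold change 0.70 ± 0.13 (SE), adjusted p = 0.00412).

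SNHG4, the host of the H/ACA snoRNAs SNORA74A and SNORA74D, had 14.2, 15.2 and 16.6 CPM in KMT2D-WT and 23.3, 36.2, 25.3 and 55.1 CPM in KMT2D-KO cells. It was the member with the largest difference in these cells, with no overlap of the groups, and the KO2 libraries were the 2 with the most SNHG4 in their experiments (log2 fold change 1.24 ± 0.26 (SE), adjusted p = 0.00868). SNHG19, the short host of SNORD60, had 14.05, 4.85 and 2.63 CPM in KMT2D-WT and 15.2, 30.3, 7.16 and 11.0 CPM in KMT2D-KO cells. Each line had less SNHG19 in experiment 2 than in experiment 1, and KO2 had the most in both (log2 fold change 1.05 ± 0.31 (SE), adjusted p = 0.0364). SNHG8, the host of SNORA24, had 39.7, 18.6 and 16.0 CPM in KMT2D-WT and 55.5, 87.0, 25.0 and 36.5 CPM in KMT2D-KO cells. Both KO libraries were above WT within each experiment (log2 fold change 0.84 ± 0.19 (SE), adjusted p = 0.0105).

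SNHG1, the first host gene in which the introns rather than the exons were found to be the conserved product, had 139, 115 and 119 CPM in KMT2D-WT and 171, 218, 135 and 165 CPM in KMT2D-KO cells. The groups overlapped slightly, and the difference was the smallest of those called (log2 fold change 0.41 ± 0.11 (SE), adjusted p = 0.0288). SNHG10, the host of SCARNA13, had 9.41, 6.96 and 6.82 CPM in KMT2D-WT and 17.4, 15.3, 10.7 and 10.8 CPM in KMT2D-KO cells. No KO library reached down to a WT library (log2 fold change 0.71 ± 0.12 (SE), adjusted p = 0.00344). SNHG15, the host of SNORA9 and a short-lived RNA, had 67.2, 45.7 and 35.9 CPM in KMT2D-WT and 106, 95.4, 65.4 and 55.7 CPM in KMT2D-KO cells. The KO library of line KO1 was the highest in each experiment (log2 fold change 0.58 ± 0.11 (SE), adjusted p = 0.00619). The other members called higher were SNHG7 (0.51), SNHG11 (0.53), SNHG16 (0.48), SNHG17 (0.67), SNHG26 (0.61) and SNHG30 (0.64), with adjusted p from 0.00201 to 0.0397.

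EPB41L4A-AS1, SNHG6 and SNHG32 were not called with glucose. EPB41L4A-AS1, also known as a transcript induced by growth arrest, had 16.5, 9.16 and 8.33 CPM in KMT2D-WT and 16.7, 24.3, 8.21 and 9.98 CPM in KMT2D-KO cells, and its groups overlapped (log2 fold change 0.16 ± 0.17 (SE), adjusted p = 0.536). SNHG6, the host of SNORD87, had 39.3, 22.5 and 24.4 CPM in KMT2D-WT and 47.2, 81.0, 25.7 and 36.8 CPM in KMT2D-KO cells (log2 fold change 0.54 ± 0.20 (SE), adjusted p = 0.0895). SNHG32, the host of SNORD48 and SNORD52, had 46.6, 21.0 and 18.6 CPM in KMT2D-WT and 49.3, 80.5, 23.6 and 30.8 CPM in KMT2D-KO cells (log2 fold change 0.47 ± 0.18 (SE), adjusted p = 0.0848). Line KO2 alone gave the larger values for SNHG6 and SNHG32, with log2 fold changes of 0.83 and 0.71 against 0.19 and 0.19 for KO1. The other uncalled members had log2 fold changes of 0.37 (SNHG3), 0.19 (SNHG5), 0.80 (SNHG9), 0.35 (SNHG12), 0.06 (SNHG14), 0.16 (SNHG20), -0.42 (SNHG21), 0.58 (SNHG25) and -0.42 (SNHG31).

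The +Glc calls rest on the covariate and on few KMT2D-WT libraries. With no covariate 0 members were called, and with the WT library of experiment 1, WT1 or WT2 left out 1, 9 and 7 were called. In both experiments taken alone, 23 of 27 members were positive and 1 was negative, against 40.0% and 40.0% of the genes that were tested in both experiments. Only in GAS5, SNHG4, SNHG10 and SNHG30 did every KO library exceed every WT library, an order held by 9.66% of all genes tested, and in 0 members did every KO library lie below, against 10.4%.

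After 6 h without glucose, calls among the host genes were mostly higher, with a few lower. Of 27 members, 13 were called higher and 3 lower in KMT2D-KO cells (50.8% of all 16782 genes tested were called, 25.9% higher and 24.9% lower), and the members' median log2 fold change was 0.41, against 0.0029 over all genes. GAS5, ZFAS1 and EPB41L4A-AS1 were all called higher, and SNHG3, SNHG4 and SNHG20 were called lower. These 3 are a smaller share than the 24.9% of all genes called lower, and so no result about the family. Scaling by library size alone, which moves the median of all genes to -0.25, gave 12 higher and 7 lower. Every KO library exceeded every WT library in 10 members (16.3% of all genes tested), and every KO library lay below in SNHG3, SNHG20 and the uncalled SNHG26 (18.9% of all genes).

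**Figure D2:**
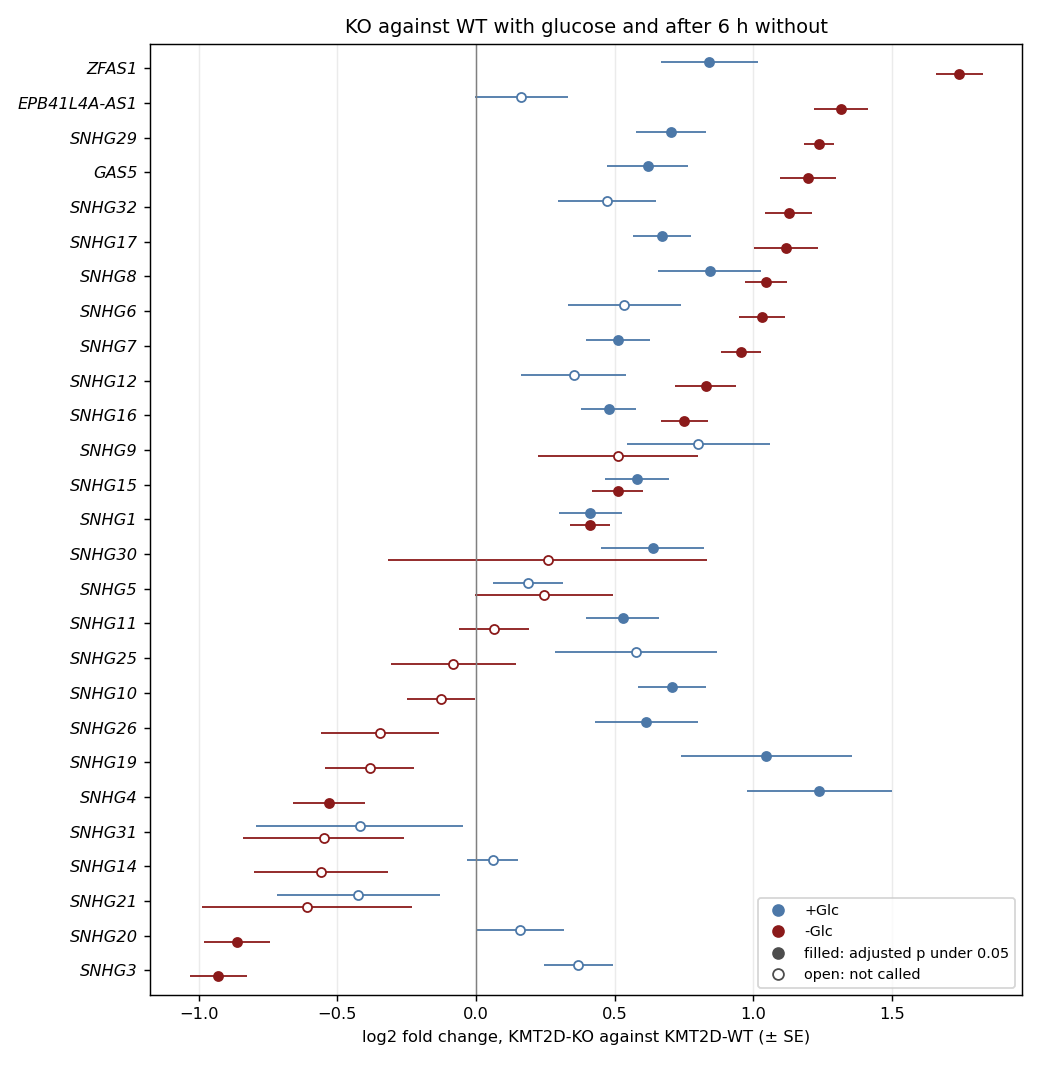
Log2 fold change of KMT2D-KO against KMT2D-WT cells with its standard error for the 27 tested members, with glucose (blue) and after 6 h without (dark red); filled points were called at an adjusted p under 0.05. ZFAS1 leads at 1.74 without glucose, SNHG3 ends the order at -0.93, and SNHG4 lies on opposite sides of 0 in the 2 conditions.

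ZFAS1 had 40.3, 34.6 and 33.5 CPM in KMT2D-WT and 122, 151, 112 and 121 CPM in KMT2D-KO cells. The KO libraries held 3.35-fold more ZFAS1 than the WT libraries, the largest difference among the members, and the groups did not overlap (log2 fold change 1.74 ± 0.085 (SE), adjusted p = 3.96e-05). EPB41L4A-AS1, which was not called with glucose, now had 21.0, 12.4 and 12.6 CPM in KMT2D-WT and 46.6, 60.5, 31.4 and 31.6 CPM in KMT2D-KO cells. Every KO library exceeded every WT library, by 2.49-fold in the fit (log2 fold change 1.32 ± 0.097 (SE), adjusted p = 0.00011). SNHG29 had 493, 307 and 301 CPM in KMT2D-WT and 1113, 1149.8, 732 and 762 CPM in KMT2D-KO cells. The groups did not overlap, and the difference was 1.202 in experiment 1 and 1.25 in experiment 2 (log2 fold change 1.24 ± 0.054 (SE), adjusted p = 3.12e-05).

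GAS5 had 168, 152 and 156 CPM in KMT2D-WT and 361, 477, 337 and 352 CPM in KMT2D-KO cells. All KO libraries lay above all WT libraries, and KO2 of experiment 1 was the highest of the 14 libraries (log2 fold change 1.198 ± 0.10 (SE), adjusted p = 0.00018). SNHG32 had 47.5, 26.6 and 26.3 CPM in KMT2D-WT and 101, 118, 54.2 and 60.0 CPM in KMT2D-KO cells. SNHG6 had 49.2, 28.6 and 29.3 CPM in KMT2D-WT and 106, 101.5, 55.7 and 62.7 CPM in KMT2D-KO cells. Neither had been called with glucose, and in both every KO library now lay above every WT library (log2 fold change 1.13 ± 0.085 (SE), adjusted p = 0.000119 for SNHG32, and log2 fold change 1.03 ± 0.083 (SE), adjusted p = 0.000146 for SNHG6).

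SNHG1 had 109, 103 and 107 CPM in KMT2D-WT and 150.1, 139.6, 142 and 144 CPM in KMT2D-KO cells. The difference was close to that with glucose (log2 fold change 0.41 ± 0.072 (SE), adjusted p = 0.00324). SNHG8 had 45.5, 21.1 and 23.2 CPM in KMT2D-WT and 93.0, 94.8, 45.2 and 48.4 CPM in KMT2D-KO cells, with the WT library of experiment 1 just above the lowest KO library (log2 fold change 1.05 ± 0.075 (SE), adjusted p = 0.000103). SNHG15 had 109.6, 62.8 and 62.9 CPM in KMT2D-WT and 175, 151, 88.9 and 88.8 CPM in KMT2D-KO cells, and here the WT library of experiment 1 exceeded both KO libraries of experiment 2 (log2 fold change 0.51 ± 0.092 (SE), adjusted p = 0.00365). The other members called higher were SNHG7 (0.96), SNHG12 (0.83), SNHG16 (0.75) and SNHG17 (1.12), with adjusted p from 0.000126 to 0.001.

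The 3 members called lower were hosts of H/ACA snoRNAs or of a scaRNA, but most called hosts of H/ACA snoRNAs were higher. Of 10 tested hosts of box H/ACA snoRNAs alone, 5 were called higher and 2 lower. Of 11 hosts of box C/D snoRNAs alone, 6 were called higher and 0 lower. SNHG3, the host of the U17 snoRNAs SNORA73A and SNORA73B, had 74.0, 53.1 and 51.1 CPM in KMT2D-WT and 45.0, 39.3, 27.7 and 25.2 CPM in KMT2D-KO cells. The groups did not overlap (log2 fold change -0.93 ± 0.10 (SE), adjusted p = 0.000484). SNHG20, the host of SCARNA16, had 9.02, 6.64 and 6.70 CPM in KMT2D-WT and 4.20, 5.05, 3.94 and 3.93 CPM in KMT2D-KO cells. All KO libraries lay below all WT libraries (log2 fold change -0.86 ± 0.12 (SE), adjusted p = 0.00121). SNHG4 had 13.4, 19.7 and 17.8 CPM in KMT2D-WT and 6.64, 9.03, 15.3 and 14.4 CPM in KMT2D-KO cells. Its KO libraries of experiment 2 lay above the WT library of experiment 1, so the call depends on the comparison within experiments (log2 fold change -0.53 ± 0.13 (SE), adjusted p = 0.0132).

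**Figure D3:**
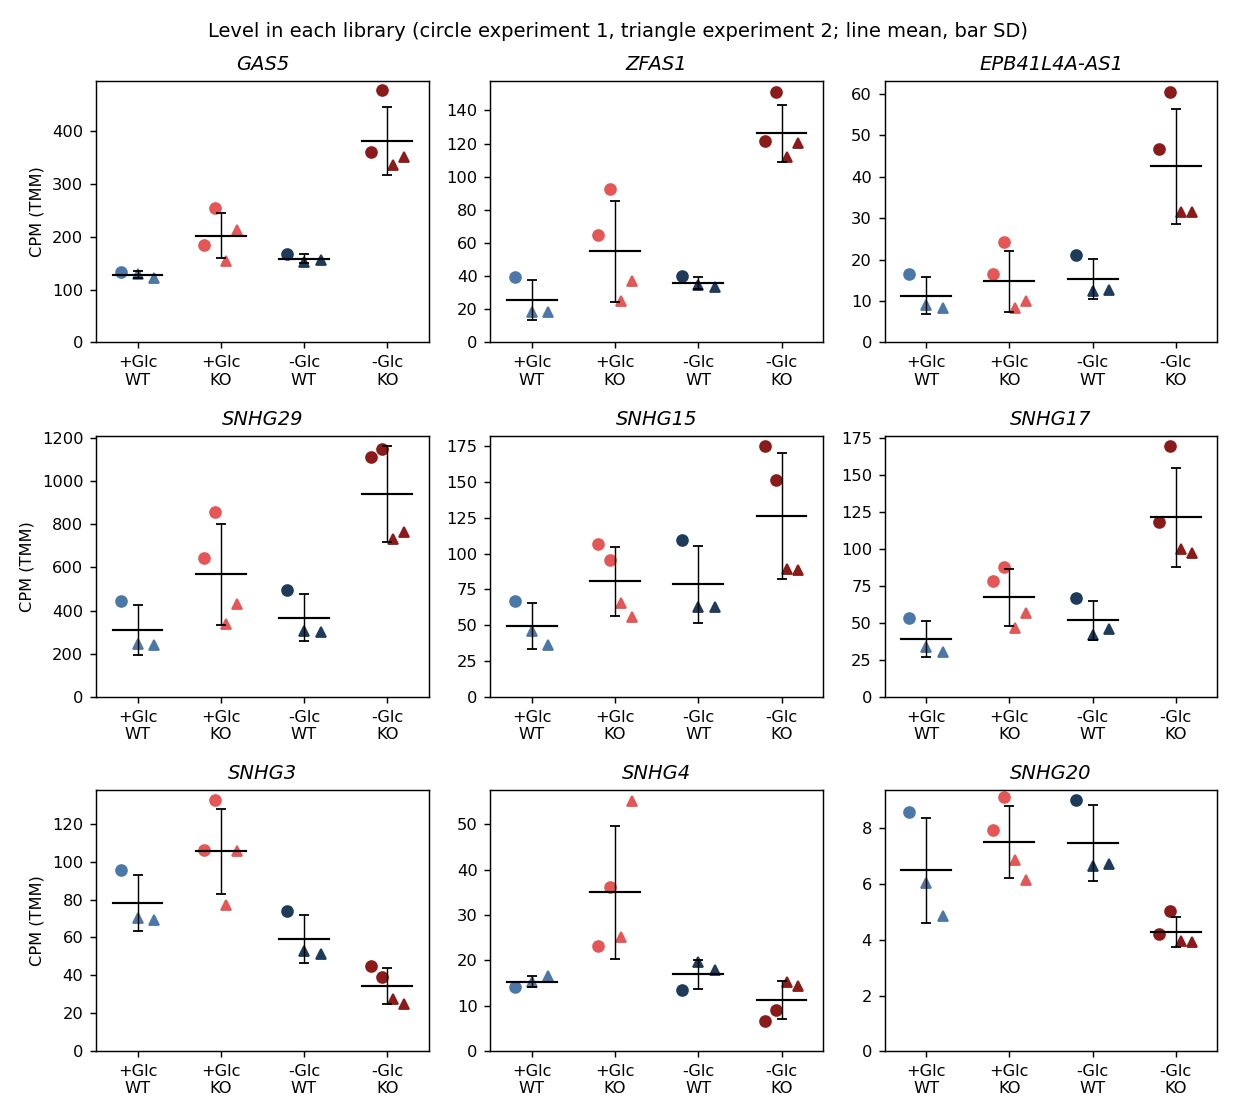
Level in CPM after TMM normalization of 9 members in each of the 14 libraries, by genotype and glucose (circles, experiment 1; triangles, experiment 2; line, group mean; bar, SD). GAS5, ZFAS1 and EPB41L4A-AS1 are highest in -Glc KMT2D-KO cells, SNHG3 and SNHG20 are lowest there, and SNHG4 is highest in +Glc KMT2D-KO cells.

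The members not called without glucose were SNHG5 (0.24), SNHG9 (0.51), SNHG10 (-0.13), SNHG11 (0.065), SNHG14 (-0.56), SNHG19 (-0.38), SNHG21 (-0.61), SNHG25 (-0.081), SNHG26 (-0.34), SNHG30 (0.26) and SNHG31 (-0.55). SNHG10 had 9.11, 7.35 and 7.83 CPM in KMT2D-WT and 9.34, 7.96, 6.88 and 6.99 CPM in KMT2D-KO cells. SNHG19 had 13.9, 3.55 and 3.10 CPM in KMT2D-WT and 10.3, 8.19, 2.66 and 3.14 CPM in KMT2D-KO cells. Neither difference, each called with glucose, was called here (-0.13 ± 0.12, adjusted p = 0.427 for SNHG10 and -0.38 ± 0.16, adjusted p = 0.0875 for SNHG19). SNHG30 had 1.72, 1.63 and 1.52 CPM in KMT2D-WT and 6.71, 2.02, 1.19 and 1.13 CPM in KMT2D-KO cells. Its high level was in KO1 of experiment 1 alone, the library with the lowest KMT2D level, so the fold change of 1.33 in experiment 1, against -0.49 in experiment 2, rests on that library. Over both experiments, leaving out 1 library gave values from -0.50 to 0.52.

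The -Glc differences of the experiments lay close together for some members and apart for others. ZFAS1 gave 1.76 and 1.72, GAS5 1.32 and 1.11, and SNHG3 -0.81 and -1.03 in experiments 1 and 2. Wider gaps were those of SNHG5 (0.59 and 0.0073), SNHG9 (0.95 and 0.15) and SNHG25 (0.28 and -0.44). In both experiments alone 15 of 27 members were positive and 9 negative, against 42.3% and 43.2% of the genes tested in both. Experiment 1 alone, with its single WT library, called 0 members and 0 of all genes tested, and 12 members were called once each close pair was summed to 1 library. The calls lost in the summed fit were SNHG1 (adjusted p = 0.0856), SNHG15 (0.0724) and, of the 3 members called lower, SNHG20 (0.0545) and SNHG4 (0.112). Without the library labelled KO1 of experiment 2, 16 were called.

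**Figure D4:**
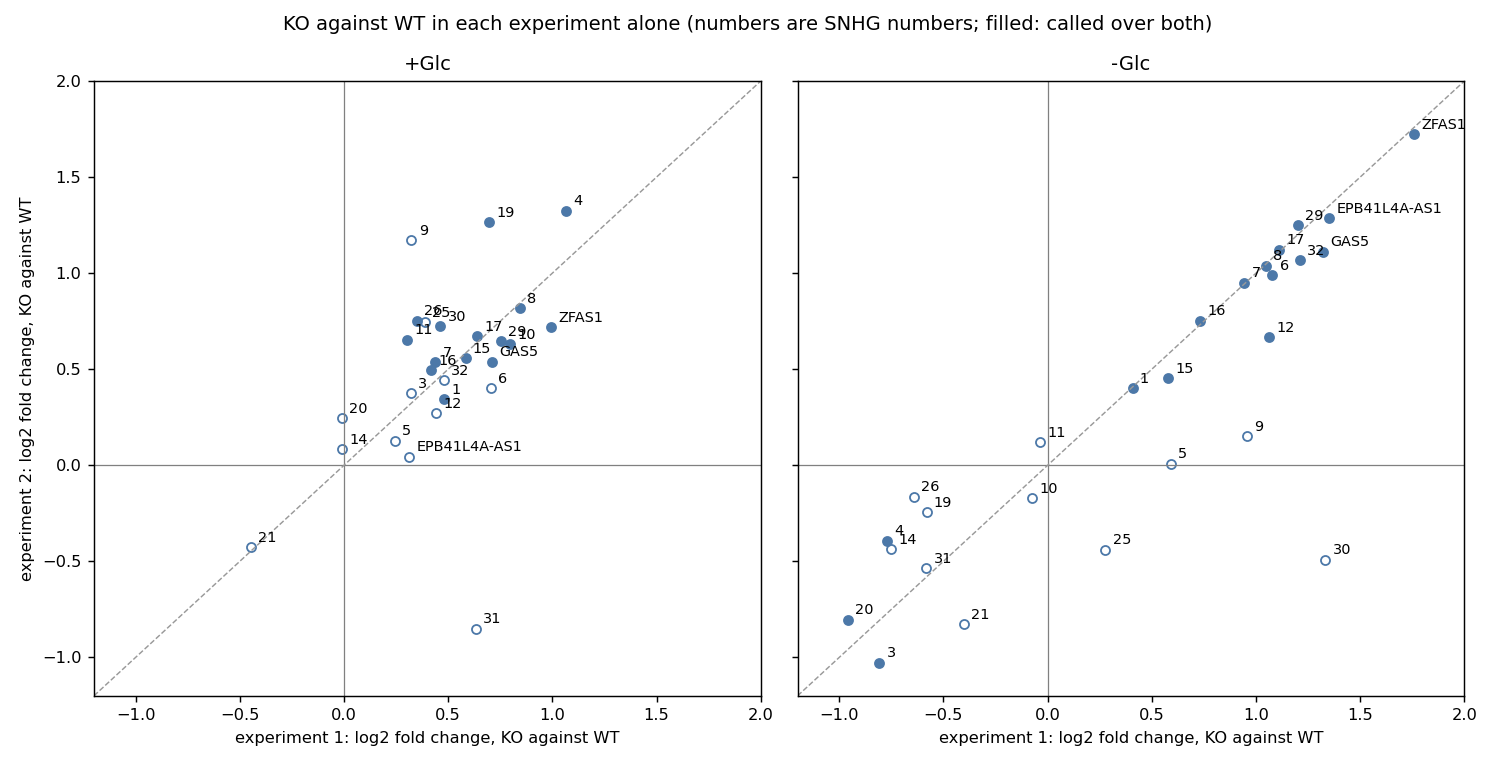
Log2 fold change of KMT2D-KO against KMT2D-WT cells in experiment 1 alone (horizontal axis) and experiment 2 alone (vertical axis) with glucose (left) and without (right); each point is 1 of 27 members, SNHG names are given by their number, filled points were called over both experiments, and the dashed line marks equal values. Without glucose ZFAS1 lies near the line at 1.76 and 1.72, and SNHG30 lies far from it.

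Whether the KMT2D-KO effect depended on glucose was tested in 1 fit of all 14 libraries. The difference of the effects, -Glc minus +Glc, was called for 8 of 27 members, 3 higher and 5 lower, and 17 had an unadjusted p under 0.05. Over all 18678 genes tested, 11.3% were called, 4.73% higher and 6.54% lower. Scaling by library size alone gave 2 members higher and 7 lower, and RLE factors gave 5 and 5. EPB41L4A-AS1 (1.18 ± 0.20, adjusted p = 0.00458), ZFAS1 (0.93 ± 0.21, adjusted p = 0.0173) and SNHG29 (0.56 ± 0.15, adjusted p = 0.0313) had the larger excess in KMT2D-KO cells without glucose (log2 difference ± SE). SNHG4 (-1.74 ± 0.34, adjusted p = 0.00833), SNHG19 (-1.41 ± 0.40, adjusted p = 0.039), SNHG3 (-1.27 ± 0.17, adjusted p = 0.00102), SNHG20 (-0.99 ± 0.20, adjusted p = 0.0102) and SNHG10 (-0.81 ± 0.16, adjusted p = 0.00891) moved the other way. For SNHG4 a rise was called with glucose and a fall without it. The fall was not called with the close pairs summed (adjusted p = 0.112) or without WT of experiment 1, WT1 or KO2 of experiment 2 (adjusted p up to 0.104), and the rise was not called without WT of experiment 1 or WT1 (adjusted p up to 0.0635). For SNHG3 and SNHG20, a fall was called without glucose and nothing with it.

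The remaining 19 differences of the effects did not pass the threshold, which does not show that they were alike. GAS5 was among them (0.61 ± 0.20, adjusted p = 0.0651), as were SNHG7 (0.47), SNHG32 (0.68), SNHG26 (-0.93), SNHG25 (-0.64), SNHG14 (-0.59), SNHG6 (0.52), SNHG12 (0.50), SNHG17 (0.47) and SNHG11 (-0.44). The rest, namely SNHG1, SNHG5, SNHG8, SNHG9, SNHG15, SNHG16, SNHG21, SNHG30 and SNHG31, lay between -0.36 and 0.30. With each close pair of experiment 2 summed, only SNHG3 was called (-1.24, adjusted p = 0.0201), and with no covariate 0 members were called. Without the -Glc KO1 library of experiment 1, the one with the lowest KMT2D level, 15 were called, and without the -Glc WT library of experiment 1, 3 were called. The +Glc and -Glc comparisons share no libraries, and 9 members were called higher in both, 5 higher only with glucose, 4 higher only without, 2 lower only without, and 6 in neither, while SNHG4 was called in opposite directions.

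The effect of glucose deprivation itself was compared in experiment 1, where all 6 libraries were counted alike, as the mean of the 3 lines in a fit of all 14 libraries. Of 27 members, 10 were called, 5 higher and 5 lower after 6 h without glucose, against 13.9% of 18678 genes (5.98% higher and 7.89% lower). EPB41L4A-AS1 rose most, from 16.5 to 21.0 CPM in WT, from 16.7 to 46.6 CPM in KO1 and from 24.3 to 60.5 CPM in KO2 (log2 fold change 1.04 ± 0.16 (SE), adjusted p = 0.00461). GAS5 rose from 134 to 168 CPM in WT, from 185 to 361 CPM in KO1 and from 254 to 477 CPM in KO2 (log2 fold change 0.73 ± 0.16 (SE), adjusted p = 0.0175). SNHG15 rose from 67.2 to 109.6 CPM in WT, from 106 to 175 CPM in KO1 and from 95.4 to 151 CPM in KO2, and so by a like amount in each line (log2 fold change 0.70 ± 0.12 (SE), adjusted p = 0.00643).

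The falls were led by SNHG4, which went from 14.2 to 13.4 CPM in WT, from 23.3 to 6.64 CPM in KO1 and from 36.2 to 9.03 CPM in KO2 (log2 fold change -1.31 ± 0.28 (SE), adjusted p = 0.0166). SNHG3 went from 95.3 to 74.0 CPM in WT, from 106 to 45.0 CPM in KO1 and from 132 to 39.3 CPM in KO2 (log2 fold change -1.12 ± 0.14 (SE), adjusted p = 0.00142). SNHG10 went from 9.41 to 9.11 CPM in WT, from 17.4 to 9.34 CPM in KO1 and from 15.3 to 7.96 CPM in KO2 (log2 fold change -0.63 ± 0.13 (SE), adjusted p = 0.0137). In all 3 the WT library moved less than either KO library. The other members called were SNHG17 (0.64) and SNHG29 (0.44), higher, and SNHG1 (-0.40) and SNHG20 (-0.56), lower.

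Not called were ZFAS1 (0.53, adjusted p = 0.0654), SNHG6 (0.57), SNHG32 (0.51), SNHG12 (0.46), SNHG5 (0.45), SNHG8 (0.33), SNHG16 (0.29), SNHG7 (0.28), SNHG11 (0.061), SNHG25 (-0.12), SNHG9 (-0.40), SNHG21 (-0.54), SNHG14 (-0.56), SNHG26 (-0.58), SNHG31 (-0.58), SNHG30 (-0.64) and SNHG19 (-0.87). Within KMT2D-KO cells of experiment 1, with 2 libraries on each side, 12 of 27 were called (17.4% of all genes), 7 higher and 5 lower. ZFAS1 (0.79 ± 0.21, adjusted p = 0.0308) and SNHG32 (0.75 ± 0.22, adjusted p = 0.0388) were among those higher, and SNHG4 (-1.92 ± 0.35, adjusted p = 0.00734), SNHG3 (-1.50 ± 0.17, adjusted p = 0.000785) and SNHG19 (-1.30 ± 0.38, adjusted p = 0.0408) had the largest falls. Within KMT2D-WT cells of experiment 1, with 1 library on each side and the spread taken from the other groups, 0 members and 0% of all genes were called by edgeR, and 1 member, SNHG15, had an unadjusted p under 0.05 (0.70). The difference between the genotypes within experiment 1 was called for 0 of 27 members (0.0375% of all genes), with 5 at an unadjusted p under 0.05.

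**Figure D5:**
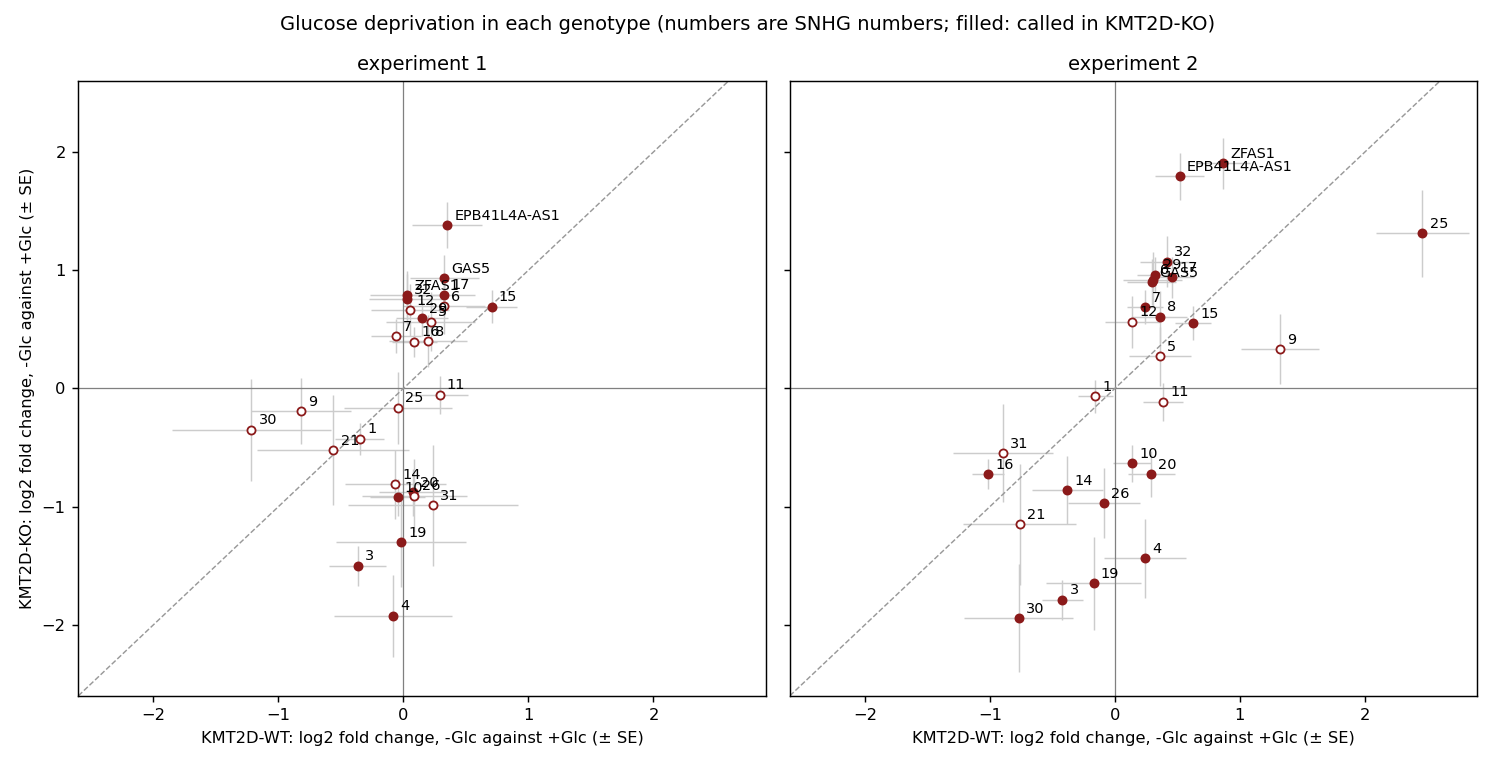
Log2 fold change of -Glc against +Glc in KMT2D-WT cells (horizontal axis) and KMT2D-KO cells (vertical axis) with standard errors, in experiment 1 (left) and experiment 2 (right); each point is 1 of 27 members, SNHG names are given by their number, filled points were called in KMT2D-KO cells, and the dashed line marks equal values. In both experiments EPB41L4A-AS1 lies above the line, SNHG3 and SNHG4 lie below it, and SNHG15 lies close to it.

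In experiment 2 the +Glc libraries were counted with both mates and the -Glc libraries with 1 read, so glucose and counting cannot be told apart there. The values are given side by side. In KMT2D-KO cells, EPB41L4A-AS1 had 1.38 in experiment 1 and 1.79 in experiment 2, GAS5 had 0.93 and 0.90, SNHG3 had -1.50 and -1.79, and SNHG4 had -1.92 and -1.44. In KMT2D-WT cells the same members had 0.35 and 0.52, 0.33 and 0.29, -0.37 and -0.42, and -0.083 and 0.24. ZFAS1 had 0.79 and 1.91 in KMT2D-KO and 0.027 and 0.87 in KMT2D-WT cells. SNHG16 and the short SNHG25 turned in sign with the experiment in KMT2D-KO cells (0.39 and -0.73, and -0.16 and 1.31).

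Several members share exonic bases with another gene, and reads that overlap 2 genes were not counted, so the neighbours' values are given too. SNHG3 lies on the strand of RCC1, the exchange factor of RAN, which was called higher without glucose (0.44 ± 0.059, adjusted p = 0.00102) where SNHG3 was lower. SNHG4 lies on the strand of MATR3, a nuclear matrix protein, which was not called in either condition (-0.28 and 0.061), and SNHG20 shares bases with SEC14L1 (-0.28 and -0.0097, not called). SNHG29 overlaps LRRC75A, which was lower without glucose (-0.82 ± 0.13, adjusted p = 0.00207) where SNHG29 was higher. SNHG10 overlaps GLRX5, a mitochondrial iron-sulfur cluster protein, on the other strand, which was called higher with glucose, as SNHG10 was (0.49 ± 0.08, adjusted p = 0.00246), and also without (0.58 ± 0.11, adjusted p = 0.00527), where SNHG10 was not called. EPB41L4A, opposite to EPB41L4A-AS1, had at most 2.26 CPM and was called higher with glucose (3.47 ± 1.03, adjusted p = 0.037), where EPB41L4A-AS1 was not called. EPB41L4A-AS1 shares 56.4% and ZFAS1 43.1% of exonic bases with other genes. Counting ignored strand, so a part of their unique bases could still hold reads of antisense transcripts.

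Genes outside the family that belong to the same pathway were compared by list. Their counts stand beside the shares of all genes called higher and lower, which were 13% and 11.7% with glucose (median log2 fold change 0.022), 25.9% and 24.9% without (0.0029), 4.73% and 6.54% for the difference of the effects and 5.98% and 7.89% for glucose deprivation. Of 18 proteins of the snoRNA particles and their assembly, 11 were called higher and 0 lower with glucose (median log2 fold change 0.35), and 15 higher and 0 lower without (median 0.54). Examples with glucose are NOP56, a core protein of box C/D particles (0.83 ± 0.11), and DKC1, the pseudouridine synthase of box H/ACA particles (0.82 ± 0.11), with NHP2 (0.77 ± 0.09) and SNU13 (0.76 ± 0.11). Without glucose SNU13 (1.01 ± 0.079) and NHP2 (1.00 ± 0.11) led, followed by FBL, the ribose methyltransferase (0.78 ± 0.081), and RUVBL1 (0.75 ± 0.09). The difference of the effects was called for 1 (PIH1D1, 0.48 ± 0.13), and glucose deprivation in experiment 1 raised 4 and lowered 0.

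Of 38 protein-coding genes that host snoRNAs, 22 were called higher and 2 lower with glucose (median 0.43), and 30 higher and 1 lower without (median 0.76). RACK1, a ribosome scaffold protein, had 2518, 1718 and 1699 CPM in KMT2D-WT and 8114, 6680.2, 4603 and 4726 CPM in KMT2D-KO cells without glucose (1.47 ± 0.10), and RPS2 (1.41 ± 0.098), RPS20 (1.33 ± 0.10) and RPS3 (1.17 ± 0.08) followed. The difference of the effects was called for 14, all higher, among them TAF1D, EEF2 and RPL13A, and glucose deprivation raised 22 and lowered 0 in experiment 1. A difference between this list and the members was not tested.

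NMD factors showed no common direction. Of 15, 3 were called higher and 1 lower with glucose, and 4 higher and 4 lower without (medians 0.0062 and -0.14). The 8 called without glucose are a share near that of all genes (50.8%) and no result about the list. UPF1, the central helicase of the pathway, had 232, 178 and 180.3 CPM in KMT2D-WT and 127, 156, 115 and 111 CPM in KMT2D-KO cells without glucose (-0.70 ± 0.073) and was called lower in the test of the difference of the effects (-0.59 ± 0.12) and after glucose deprivation (-0.67 ± 0.094, with UPF2 at -0.58 ± 0.099). SMG5 (0.48 ± 0.095) and RBM8A (0.48 ± 0.067) were higher in -Glc KMT2D-KO cells, and also in +Glc KMT2D-KO cells (0.64 ± 0.083 and 0.41 ± 0.096). Whether the level of UPF1 bears on that of the host RNAs was not tested.

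Of 20 other long non-coding RNAs, 19 were tested with glucose (5 higher, 3 lower) and 17 without (6 higher, 6 lower), with medians of 0.23 and -0.21. DANCR, another snoRNA host that bears no SNHG name in the files, had 55.0, 35.8 and 36.1 CPM in KMT2D-WT and 103, 117, 67.6 and 77.3 CPM in KMT2D-KO cells with glucose (1.01 ± 0.091) and 37.5, 31.5 and 29.4 CPM in KMT2D-WT and 145, 119, 91.6 and 97.9 CPM in KMT2D-KO cells without (1.69 ± 0.12). UCA1, an RNA named for urothelial cancer, was called lower with glucose (-1.55 ± 0.12) and without (-1.25 ± 0.12). CYTOR (0.49 ± 0.13 and 1.55 ± 0.075) and PVT1 (0.60 ± 0.11 and 1.49 ± 0.13) were called higher in both conditions, and LINC00511 was called higher without glucose (2.41 ± 0.18) but not with it (0.39 ± 0.27). The largest falls without glucose, named after their values were seen, were those of TUG1 (-1.38 ± 0.096), MIR22HG (-1.32 ± 0.18) and UCA1. The difference of the effects was called for 7, 4 higher and 3 lower, and glucose deprivation raised 2 and lowered 5 in experiment 1.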

How the data were processed

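Counts per gene of 14 polyA RNA-seq libraries were used as deposited. The authors mapped the reads with HISAT2 to GRCh38 and made the counts with featureCounts 2.0.3 on the Ensembl 102 annotation by gene name, without strand, and the deposited counts were not normalized. Reads overlapping more than 1 gene were not counted. Other columns of values left unused numbered 0. Total counts were 15669154 to 62968057 per library.

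Genes were filtered by filterByExpr (minimum count 10), normalized by TMM and tested with edgeR 4.0.16 in R 4.3.3 by its quasi-likelihood test, and a gene was called at a Benjamini-Hochberg adjusted p under 0.05 over all genes. Each glucose condition was fitted with genotype and experiment. The study's methods name DESeq2 and no covariate. Experiment was added because the 2 experiments differed alike in KMT2D-WT and KMT2D-KO cells (Pearson r over genes 0.91 with glucose and 0.85 without) and hold unequal numbers of KMT2D-WT libraries. Library numbers mark experiment and line in the labels, so experiment was the block.

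All tested members were named. Full statistics were given for GAS5, ZFAS1, EPB41L4A-AS1, the 5 members highest per kb and up to 3 called members in each direction and comparison, and of the other lists up to 4 called genes were chosen. The members and lists were chosen with earlier results of these data known. The edgeR fits were first tested on simulated counts with known changes. Of 1.5-fold changes, 0% were recovered for the difference of the effects and 17.9% to 22.4% in the other comparisons. Of 4-fold changes, 66.7% to 84.8% were recovered. False calls made up 5.66% to 9.28% of the calls. A member that was not called may therefore still have changed. Alternatives were DESeq2 1.42.0, other scalings and filters, length offsets, halved or summed counts, single lines and experiments, and each library left out. Starts were taken from RefSeq (GRCh38.p14). The ChIP-seq data were not used here.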

Additional observations from a re-analysis of the deposited data

Results flagged for a closer look

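SNHG26, the host of SNORD93, stood apart in 1 library. In -Glc KMT2D-KO cells it had 3.45 CPM in KO1 of experiment 1, while the other 3 libraries had 6.73 to 7.41 CPM, a gap of 0.871 of the group's range on the log2 scale, above Dixon's 95% limit. This was 1 of 54 groups of 4 libraries examined, of which chance alone flags about 1 in 20. The same library had the lowest KMT2D level of the series, and a relation between these values was not tested.

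The effect of KMT2D-KO differed between -Glc and +Glc cells in 8 members by a test of the difference itself (edgeR). On the log2 scale the -Glc effect exceeded the +Glc effect by 1.18 for EPB41L4A-AS1, 0.93 for ZFAS1 and 0.56 for SNHG29. The difference was -1.74 for SNHG4, -1.41 for SNHG19, -1.27 for SNHG3, -0.99 for SNHG20 and -0.81 for SNHG10.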

How the results depend on the processing

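The replicate block, here the experiment, decided many calls. Without it 0 members in place of 15 were called with glucose, 9 in place of 16 without, 0 in place of 8 for the difference of the effects, and 5 in place of 10 for glucose deprivation, which also gave 5 with the line as replicate block in experiment 1 alone. Experiment 1 alone called 0 members in either condition, and experiment 2 alone called 2 with glucose. DESeq2 called 13 for the difference of the effects. Summing the close pairs left 1 for the difference and 2 for glucose deprivation, while taking experiment 2 or the mean of both experiments for glucose deprivation gave 22 and 24. Leaving out 1 library gave 1 to 19 with glucose, 15 to 20 without, 3 to 15 for the difference of the effects and 5 to 13 for glucose deprivation (5 without the +Glc KO1 library of experiment 1); for the last, fits without a WT library of experiment 1 could not be made. For the difference of the effects, leaving out -Glc WT2 or KO2 of experiment 2 gave 5 each. The cause was not tested.

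Scaling by library size alone shifted the median of all genes by -0.25 without glucose, -0.23 for the difference of the effects and -0.17 for glucose deprivation. It gave 12 higher and 7 lower members without glucose (13 and 3 with TMM), and 2 higher and 7 lower for the difference, where RLE factors gave 5 and 5 (3 and 5 with TMM). No called member changed direction in any alternative. Over all alternatives and called members, calls were kept in 216 and lost in 84 cases with glucose, 287 and 33 without, 143 and 41 for the difference and 185 and 55 for glucose deprivation.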

Other observations

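Mature snoRNAs carry no polyA tail, and few reads fell on their genes in these libraries. Of 130 snoRNA names with 1 locus inside members, 16 had a count, 4538 counts in all over the 14 libraries. SNORD104, an intronic snoRNA of SNHG25, took 1826, SNORA73B of SNHG3 took 1136, and SNORA71B of SNHG17 took 618. A total of 70 names lay wholly within exons of their host, where a read overlaps 2 genes and is not counted, so the host values above say nothing of the mature snoRNAs.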
